A study of Mus musculus with 4 samples.

Results

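The genes of 3 type 2 cytokines (Il4, Il5, Il13), the receptor subunit ST2 (Il1rl1), the transcription factor Gata3, the growth factor amphiregulin (Areg) and the shared IL-4 and IL-13 receptor chain (Il4ra) were followed through tumour leukocytes. The 7 genes were taken by name from the 32285 genes of the deposited table, and each name matched 1 gene. RNA had been counted in single Cd45 positive (leukocyte) cells, sorted alive from subcutaneous tumours of KPC, a pancreatic cancer line of the mouse. The libraries were 1 each from untreated tumours, tumours given a STING agonist (a cyclic dinucleotide that activates an interferon-inducing sensor), tumours given an LTbR agonist (an antibody that triggers the lymphotoxin-beta receptor), and tumours given both, called the combination. The mice were males of the C57BL/6 strain. Before dissociation all tumours of 1 group had been combined, as the methods describe, so that no value belongs to a single mouse. Which of the study's repeated single-cell experiments gave these libraries is not stated, and a sort on Cd45 leaves out stromal and most tumour cells.

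Type 2 immunity is the arm of the immune system known for responses to worms, allergens and damaged tissue. IL-4 and IL-13 act through a receptor that contains the Il4ra chain and drive macrophages into an alternatively activated state, while IL-5 supports eosinophils. The main lymphoid sources are Th2 cells and group 2 innate lymphoid cells (ILC2), both of which depend on Gata3 and can carry ST2, the receptor for the alarm cytokine IL-33. Regulatory T cells in tissue can carry ST2 as well, and they are known for making amphiregulin, an epidermal growth factor receptor ligand involved in tissue repair.

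The 3 cytokine genes lie side by side on mouse chromosome 11 (build GRCm38, GENCODE M21 annotation). Il4 covers bases 53602982 to 53618669 on the minus strand, Il13 covers 53631324 to 53634702 on the same strand, and Il5 covers 53720794 to 53725106 on the plus strand. The whole stretch spans 122.1 kb, and Rad50, a DNA repair gene, is the 1 protein-coding gene between Il13 and Il5. The other members lie apart from it: Il1rl1 on chromosome 1 from 40429570 to 40465415, Gata3 on chromosome 2 from 9857078 to 9890034, Areg on chromosome 5 from 91139599 to 91148432 and Il4ra on chromosome 7 from 125552120 to 125579474. Since the cytokines were often found in the same cells (described with the cell counts), the 250 bases before their starts are printed here from RefSeq (GRCm38.p6), each 5′ to 3′ on the strand of its gene. Capitals mark the 4 letters GATA on either strand, which is the core that GATA factors bind.
Il4, chr11:53618666-53618915, minus strand: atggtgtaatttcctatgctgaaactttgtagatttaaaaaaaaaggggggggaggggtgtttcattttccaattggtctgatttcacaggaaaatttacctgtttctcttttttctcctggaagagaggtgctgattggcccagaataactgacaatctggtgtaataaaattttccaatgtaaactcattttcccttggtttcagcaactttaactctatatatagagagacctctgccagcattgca
Il13, chr11:53634703-53634952, minus strand: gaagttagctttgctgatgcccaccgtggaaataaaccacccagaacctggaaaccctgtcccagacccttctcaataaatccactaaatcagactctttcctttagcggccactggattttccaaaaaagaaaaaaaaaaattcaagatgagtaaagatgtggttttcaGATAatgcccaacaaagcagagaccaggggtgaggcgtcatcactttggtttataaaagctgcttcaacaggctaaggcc
Il5, chr11:53720544-53720793, plus strand: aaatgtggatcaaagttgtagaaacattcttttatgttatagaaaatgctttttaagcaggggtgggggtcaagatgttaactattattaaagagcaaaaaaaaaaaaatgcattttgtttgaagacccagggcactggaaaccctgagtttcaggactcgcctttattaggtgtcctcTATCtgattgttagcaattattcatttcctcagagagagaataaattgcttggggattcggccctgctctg
The core matched at position -80 before the start of Il13 and at position -71 of Il5, and it did not match in this window of Il4. A second RefSeq start of Il4, at base 53617338, had 3 matches before it. These 4 letters are common: 53.6% of 32851 RefSeq promoters of the same length held them. The longer GATAA matched in Il13 but not in Il4 or Il5, against 22.6% of all promoters. The promoter of Areg is shown because its level differed between libraries within regulatory-like cells, which held most of its UMIs of any population. It differed within other populations too. Its capitals mark TGACGTCA, the cAMP response element.
Areg, chr5:91139349-91139598, plus strand: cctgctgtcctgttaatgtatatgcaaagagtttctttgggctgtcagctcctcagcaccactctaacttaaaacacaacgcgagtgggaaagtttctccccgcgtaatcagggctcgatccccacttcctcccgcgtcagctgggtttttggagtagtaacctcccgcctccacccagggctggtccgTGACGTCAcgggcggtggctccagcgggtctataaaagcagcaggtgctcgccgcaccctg
This element began 61 bases before the start (position -61), and 1.55% of all promoters held it.

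The untreated, STING agonist, LTbR agonist and combination libraries held 6783, 3748, 7147 and 5333 cells within the study's quality limits, with medians of 7094, 6748, 5750 and 5877 unique molecular identifiers (UMIs) per cell. Of all barcode sequences, 246 occurred in more than 1 library. Levels are given as counts per 1000000 UMIs (CPM), summed over the cells of a library. Each group had a single library, so that replicate error could not be measured and no test was made, and all intervals are exact 95% intervals that cover counting error only.

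The 3 cytokines and ST2 were higher in both libraries that had received the LTbR agonist. Il4 was 0.779 CPM in the untreated library (42 UMIs), 0.370 with the STING agonist (11 UMIs), 2.56 with the LTbR agonist (129 UMIs) and 3.21 with the combination (123 UMIs). The ratio of the LTbR agonist to untreated was 3.29 (2.31 to 4.78) and the same ratio for both agonists together was 4.12 (2.88 to 5.99). These 2 libraries did not differ beyond counting error in Il4, since the combination was 1.25 times the LTbR agonist alone (0.969 to 1.61). Il5, the eosinophil factor, was 0.223 CPM in the untreated library, 0.336 with the STING agonist, 1.23 with the LTbR agonist and 5.63 with the combination. It thus stood 25.3 times above untreated under the combination (14.2 to 49.8) and 4.57 times above the LTbR agonist alone (3.43 to 6.17). For the STING agonist alone the counts of 10 against 12 UMIs could not show a difference (ratio 1.51, 0.584 to 3.81).

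Il13 had the opposite order between those 2 libraries. It was 0.909 CPM in the untreated library, 1.14 with the STING agonist, 16.3 with the LTbR agonist and 11.9 with the combination. Here 1 cell decided the order: a single cell of the LTbR agonist library held 552 of its 819 Il13 UMIs. Without the top cell of every library the Il13 level was 5.31 CPM with the LTbR agonist and 9.89 with the combination, which were 7.95 and 14.8 times untreated in place of 17.9 and 13.1 times. Leaving out the top cells moved Il4 too, from 3.29 to 5.31 times untreated with the LTbR agonist and from 4.12 to 5.82 times with the combination.

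Il1rl1 was 6.49 CPM in the untreated library, 5.24 with the STING agonist, 14.6 with the LTbR agonist and 24.9 with the combination. This last value was 3.84 times the untreated one (3.39 to 4.35). The STING agonist alone was slightly below untreated by UMIs (0.808, 0.664 to 0.978), but 1 untreated cell held 42 of the 350 untreated UMIs. As a share of cells with a UMI its ratio to untreated was 1.05 (0.775 to 1.42). Gata3, the factor that fixes the Th2 and ILC2 fate and is also used by other T cells, differed less between libraries. It was 16.8, 17.9, 21.2 and 29.5 CPM in the same order, and 1.76 times untreated under the combination (1.61 to 1.92). Areg was 57.6 CPM in the untreated library, 88.3 with the STING agonist, 91.6 with the LTbR agonist and 131 with the combination, so that it was higher in every treated library (1.53, 1.59 and 2.28 times). Barcodes beyond the quality limits bear on this: they held a further 1753, 185, 1624 and 761 Areg UMIs, and with all deposited barcodes the log2 ratio of the STING agonist was 0.11 in place of 0.62. Il4ra alone was lower in all 3 treated libraries, although the STING agonist differed little (0.953). It was 218, 208, 167 and 129 CPM, which under the combination was 0.593 of untreated (0.574 to 0.613).

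**Figure D1:**
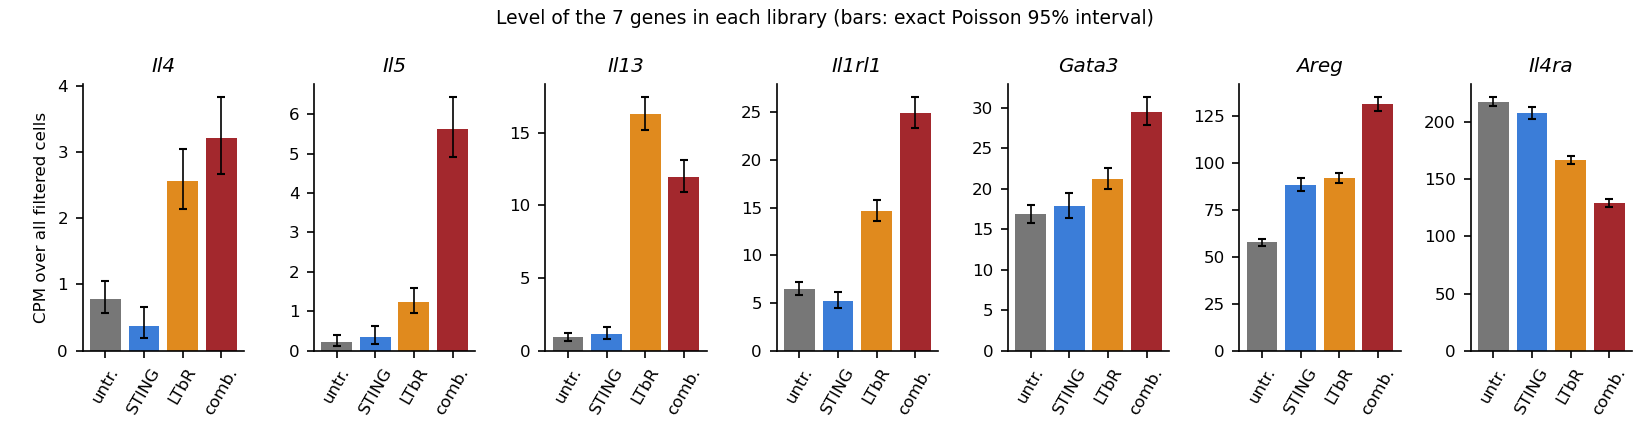
Bars give the CPM of each of the 7 genes over all filtered cells of the untreated (untr.), STING agonist, LTbR agonist (LTbR) and combination (comb.) libraries, with exact Poisson 95% intervals as error bars and a separate vertical axis per gene. Il5 reached 5.63 CPM under the combination against 0.223 in the untreated library, while Il4ra ran the other way, from 218 to 129 CPM.

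The folds were read against those of all genes. Under the combination 5 of 7 members (Il4, Il5, Il13, Il1rl1 and Areg) were at least 2-fold above untreated, against 3.24% of the 12948 genes with at least 50 UMIs in either library, and no member was 2-fold below, against 2.7%. Areg was under 2-fold with all deposited barcodes (log2 ratio 0.76) and with cells thinned to 1000 UMIs (0.93). With the LTbR agonist 4 of 7 were 2-fold above (all genes: 1.94%) and none below (0.861%), but Il1rl1 was under 2-fold with thinned cells (log2 ratio 0.79). With the STING agonist, Il4, Il5 and Il13 did not reach 50 UMIs, and of the 4 members that did, none was 2-fold above (all genes: 1.01%) or below (1.4%). The 3 treated libraries share 1 untreated library, so these comparisons are not independent of each other. In the untreated library Il4, Il5 and Il13 had 42, 12 and 49 UMIs. With the LTbR agonist and the combination they thus passed the limit of 50 UMIs only through the treated library, where they were high. Their place in these counts, also in the T-like cells below, rests on that entry. Within the 7635 T-like cells alone the same 5 members passed under the combination (all genes: 0.697% above, 0.804% below) and the same 4 with the LTbR agonist (0.844% above, 0.912% below). In these cells the STING agonist again gave none of 4 (0.587% above, 1.51% below), and Il4ra was 1.10 times untreated under the combination, not below it.

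Very few cells held most of the cytokine UMIs. Over the 4 libraries, 13 cells carried 50% of the 305 Il4 UMIs, 5 cells carried 50% of the 300 Il5 UMIs, and 3 cells carried 50% of the 1360 Il13 UMIs. A UMI of Il4 was seen in 116 of 23011 cells, of Il5 in 71 and of Il13 in 140, and the 10 top cells held 46.9%, 66.3% and 67.6% of the UMIs. By contrast, 50% of the UMIs lay in 115 cells for Il1rl1, 163 for Areg, 626 for Gata3 and 2656 for Il4ra, the most widely spread of the 7. In the untreated library 2 cells held 50% of Il4, 2 of Il5 and 3 of Il13, so that the denominators of the ratios above rest on a handful of cells.

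The number of cells with a UMI is less moved by 1 strong cell, and it pointed the same way as the levels for the LTbR agonist and the combination. Il13 was detected in 18, 17, 46 and 59 cells of the untreated, STING agonist, LTbR agonist and combination libraries, which is 0.265%, 0.454%, 0.644% and 1.11% of cells. For Il5 these counts were 6, 3, 15 and 47 cells and for Il4 12, 10, 49 and 45 cells. As a share of cells Il5 was 2.37 times untreated with the LTbR agonist, with an interval that includes 1 (0.870 to 7.46). With the combination it was 9.96 times (4.25 to 28.5). In the LTbR agonist library 1 cell held 29 of the 62 Il5 UMIs. By cells, then, Il13 was highest in the combination (4.17 times untreated, 2.43 to 7.51) and not in the LTbR agonist library (2.43 times, 1.38 to 4.44), although the intervals overlap. After each cell was thinned to 1000 UMIs the 2 ratios were 3.48 and 2.33. Il1rl1 was found in 1.80% and 1.89% of cells without the LTbR agonist and in 3.47% and 4.09% with it.

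**Figure D2:**
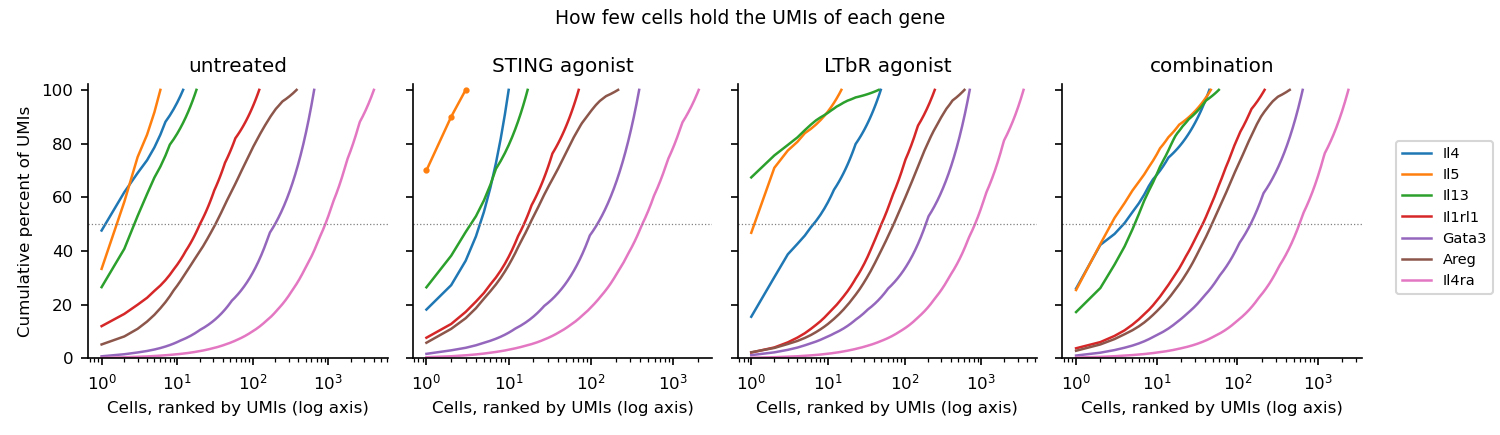
Each line gives, for 1 gene, the cumulative percent of its UMIs held by the cells of a library, ranked from the cell with most UMIs down, on a logarithmic axis of cell number. The lines of Il4, Il5 and Il13 reach 50% within 7 cells in every library, whereas Il4ra needs 422 to 915 cells.

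To see which cells these were, all cells were clustered without the 7 genes, so that their levels could not draw the clusters, and the T- and NK-like clusters were clustered again. A sub-cluster of 139 cells, 88 of them with a Cd4 UMI, matched the Th2 marker list. It carried 80.3% of all Il5 UMIs, 45.2% of Il4, 33.9% of Il1rl1 and 32.5% of Il13, in 139 of 23011 cells. Its leading genes besides members included Pparg, a lipid-sensing nuclear receptor used by Th2 cells, and Hlf. Pparg had a UMI in 64.0% of its cells against 6.01% of regulatory-like cells. A second sub-cluster of 439 CD4 helper-like cells, led by Penk (proenkephalin), Csf2 (GM-CSF) and Il21, held 58.1% of Il13, 14.7% of Il5 and 13.8% of Il4. That Il13 share includes the cell with 552 UMIs, which also had 29 Il5, 11 Il4, 7 Gata3 and 4 Il1rl1 UMIs among 11520 in all.

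The Th2 and ILC2 marker lists scored nearly alike here (2.37 and 2.27). The name Th2-like came from the conventional CD4 list scoring highest (3.35) and from Pparg, a Th2 marker, among the 10 leading genes. T-cell receptor genes did not enter the name and were counted afterwards. In the 139 cells 5 of 7 Th2 markers and 8 of 8 ILC2 markers lay at least 2-fold above the first quartile of the sub-clusters. Calca (a neuropeptide gene of the ILC2 list) had a UMI in 22.3% and Il9r in 20.9% of them, whereas the Th2 markers Ptgdr2 and Bhlhe41 had one in 0 and 2 cells. On the other hand 129 of the cells had at least 3 UMIs of T-cell receptor complex genes, 123 had a UMI of a receptor constant gene (Trac, Trbc1 or Trbc2) and 88 had a Cd4 UMI. The 7 cells with at most 1 T-marker UMI held no UMI of Il4, Il5 or Il13. Across all T- and NK-like clusters, 27 cells carried at least 2 of 5 ILC2 markers (Il17rb, Nmur1, Calca, Il9r, Hs3st1) with at least 3 T-marker UMIs, and 0 cells carried 2 of them without any T-marker UMI. Some of these markers were sparse even in the 139 cells, where Il17rb, Nmur1 and Hs3st1 had a UMI in 7, 10 and 4 cells. The count of 0 therefore cannot show that ILC2 were absent. By the marker lists, which did not use this count, no sub-cluster was named ILC2-like. Only 1 of the 139 cells had a UMI of Foxp3, the factor that defines regulatory T cells.

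Free RNA gave little background for the 3 cytokine genes. Neutrophil-like cells had 0 Il4, 0 Il5 and 0 Il13 UMIs in 966 cells (median 2222.5 UMIs per cell). As a limit, 3 counts in these cells would be a share of 0.311% with a UMI, which bounds detection at this depth and not expression. For Il1rl1 the share was higher, with a UMI in 10 of the neutrophil-like cells (1.04%). NK-like cells, with a median of 4920 UMIs, had a UMI of Il13 in 0.280% and of Il1rl1 in 0.210% of 1429 cells. Among the Th2-like cells (median 4548) those shares were 35.3% for Il13 and 89.9% for Il1rl1, and 35.3% for Il5 and 33.1% for Il4.

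**Figure D3:**
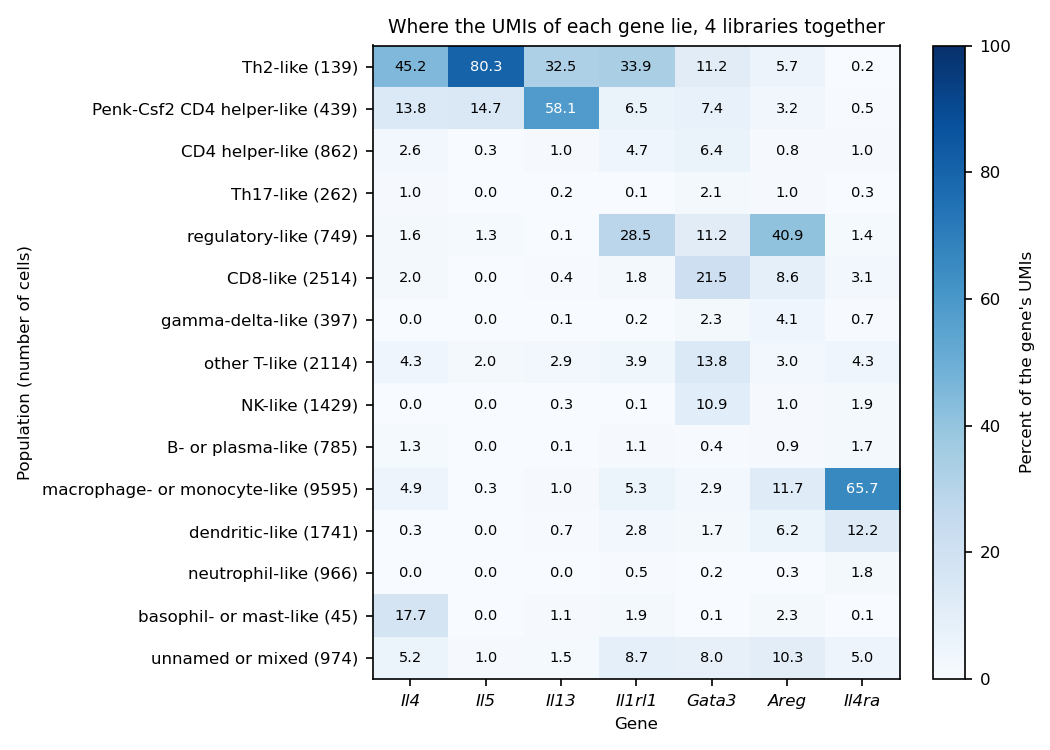
Each field gives the percent of a gene's UMIs (columns) found in a population (rows, number of cells in parentheses), over the 4 libraries together, with darker blue for more. Il5 sits almost wholly in the Th2-like and Penk-led sub-clusters, Areg mainly in regulatory-like cells (40.9%) and Il4ra in macrophage- or monocyte-like cells (65.7%). Gata3 spreads over T- and NK-like rows.

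Il4 had a further source outside the T cells. The basophil- or mast-like cluster of 45 cells held 17.7% of all Il4 UMIs and none of Il5. By markers alone, 26 cells of the whole series had at least 3 of 7 basophil or mast cell genes, and they held 57 Il4 UMIs, of which 46 were in the 14 cells with Mcpt8, a basophil protease. The strongest were 1 untreated and 1 LTbR agonist cell with 20 Il4 UMIs each. In the untreated library such cells held 23 of the 42 Il4 UMIs (54.8%), against 27.3% with the STING agonist, 22.5% with the LTbR agonist and 1.63% with the combination. Most Il4 of the combination (78.9%) lay in Th2-like cells instead.

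Th2-like cells were more frequent with the LTbR agonist and most frequent with the combination. There were 11 in the untreated library (0.162%), 6 after the STING agonist (0.160%), 42 after the LTbR agonist (0.588%) and 80 after the combination (1.5%). The share under the combination was 9.25 times untreated (4.90 to 19.3), and that of the LTbR agonist 3.62 times (1.83 to 7.80). When the 7 genes were kept among the clustered genes the matching sub-cluster had 18, 8, 54 and 88 cells and took in the cell with 552 Il13 UMIs. The share of Il13 in Th2-like cells was then 79.9%, in place of 32.5%.

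Within Th2-like cells the levels of most members did not follow that order. Il1rl1 was 1438 CPM in the 11 untreated Th2-like cells (1089 to 1863), 840 with the STING agonist, 904 with the LTbR agonist and 884 with the combination (807 to 965), where it was 0.614 of untreated (0.466 to 0.823). Gata3 was 580, 540, 470 and 507 CPM in the same order, with overlapping intervals. Il4 was 202 CPM in the untreated and 174 in the combination cells (ratio 0.863, 0.421 to 2.06). For Il13 the combination cells had a higher level, at 625 against 328 CPM (ratio 1.91, 1.10 to 3.61). The level was 540 CPM with the STING agonist, from 9 UMIs in 1 cell, and 356 with the LTbR agonist. The Il13 UMIs lay in 3 of the 11 untreated and 32 of the 80 combination cells, and 1 combination cell held 79 of them. Il5 was 177 CPM in the untreated cells, 540 with the STING agonist (9 UMIs over 6 cells), 148 with the LTbR agonist and 350 with the combination. Relative to the untreated cells Il5 was thus 3.06 times as high with the STING agonist (1.01 to 9.66), 0.840 times with the LTbR agonist (0.361 to 2.26) and 1.98 times with the combination (0.944 to 5.00). The untreated Th2-like cells had 13 Il13 and 7 Il5 UMIs, which limits both ratios.

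The cytokines were often found in the same cells. Of the 71 cells with an Il5 UMI, 48 (67.6%) also had Il13, which is seen in 0.608% of all cells, and 62 (87.3%) had Il1rl1, seen in 2.86%. Of the 116 cells with Il4, 37.1% had Il13 and 22.4% had Il5. At least 2 of the 3 cytokines were present in 6 untreated, 4 STING agonist, 21 LTbR agonist and 42 combination cells, and 46 of these 73 cells were Th2-like. All 3 were present in 1, 1, 4 and 16 cells. The 2 strongest Il5 cells, both from the combination, showed that the mixture varied between cells: 1 had 55 Il5, 79 Il13 and no Il4 UMIs, and the other had 37 Il5, 4 Il13, 2 Il4 and 118 Areg UMIs.

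Il1rl1 had regulatory-like cells as its second place. These 749 cells, of which 560 had a Foxp3 UMI, held 28.5% of its UMIs. Their Il1rl1 level was 166 CPM in the untreated library, 142 with the STING agonist, 214 with the LTbR agonist and 214 with the combination. Relative to untreated this gave 0.853 (0.608 to 1.19), 1.29 (1.03 to 1.62) and 1.29 (1.01 to 1.65). Regulatory-like cells themselves were 2.39%, 2.56%, 4.65% and 2.98% of cells. Thus the LTbR agonist library had more such cells and the combination had more Th2-like cells. Of the library-wide Il1rl1 level, regulatory-like cells gave 2.02, 1.92, 5.65 and 4.62 CPM and Th2-like cells 1.06, 0.471, 3.64 and 12.8 CPM, in the order untreated, STING agonist, LTbR agonist and combination. The highest single cell, with 42 Il1rl1 UMIs, was an untreated cell of the Penk-led sub-cluster and held 12.0% of the UMIs of its library.

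Gata3 was the least confined of the lymphoid genes. CD8-like cells held 21.5% of its UMIs, other T-like cells 13.8%, Th2-like and regulatory-like cells 11.2% each and NK-like cells 10.9%. Its level was 502 CPM in Th2-like cells (454 to 553), 127 in regulatory-like cells (115 to 140), 48.9 in NK-like cells and 43.6 in CD8-like cells. Neutrophil-like cells, which do not use Gata3, had a UMI in 0.725% of cells, against 21.1% of NK-like cells. In regulatory-like cells Gata3 was 123, 142, 125 and 127 CPM across the libraries, with overlapping intervals. Of the library-wide Gata3 level, Th2-like cells gave 0.427 of 16.8 CPM in the untreated library and 7.36 of 29.5 CPM in the combination.

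Areg was foremost a product of regulatory-like cells, which held 40.9% of its 15372 UMIs, and 57.4% of these cells had at least 1 Areg UMI against 1.14% of neutrophil-like cells. Its level within them differed between libraries. It was 1385 CPM in the untreated library (1296 to 1478) and 3017 after the STING agonist (2850 to 3192). The LTbR agonist gave 1552 CPM (1486 to 1621) and the combination 2535 CPM (2428 to 2646). Both libraries with the STING agonist thus stood above both without it, by 2.18 times (2.00 to 2.38) for the STING agonist alone and 1.83 times (1.69 to 1.98) for the combination relative to untreated. With the LTbR agonist alone the ratio was 1.12 (1.04 to 1.21), but regulatory-like cells were 1.95 times as frequent as in the untreated library (1.61 to 2.36). As a result, regulatory-like cells gave 16.9, 40.8, 40.9 and 54.8 CPM of the library-wide Areg level. The share of regulatory-like cells with an Areg UMI varied less, at 51.9%, 54.2%, 56.0% and 67.9%, and a few cells were very rich, with up to 161 UMIs.

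The immediate-early genes are a list of 10 genes such as Fos and Egr1 that respond quickly to stimulation and also to tissue dissociation. In regulatory-like cells their sum had the same order over the 4 libraries as Areg, but not in the other populations examined. Their summed level in regulatory-like cells was 1571 CPM in the untreated library, 3062 with the STING agonist, 1823 with the LTbR agonist and 2430 with the combination. All 10 of 10 were above untreated with the combination, 8 with the STING agonist and 6 with the LTbR agonist, and none was at 0. How many of all genes were above untreated in these cells was not counted. Over all filtered cells their sum was 3581, 4473, 3004 and 2929 CPM, with median ratios of 1.23, 0.977 and 0.970 in the treated libraries. With the STING agonist 1 of 10 (Egr1) was 2-fold above untreated (1.01% of all genes) and none below (1.4%). None was past 2-fold with the LTbR agonist (1.94% above, 0.861% below) or the combination (3.24% above, 2.7% below). In Th2-like cells the sum was 2145, 5398, 2209 and 2270 CPM, while Areg in the treated libraries was 0.378, 0.726 and 1.07 times untreated. In macrophage- or monocyte-like cells it was 4739, 5612, 3853 and 4335 CPM, while Areg was 1.79, 2.54 and 1.68 times untreated. The part of the immediate-early genes in the Areg result was not tested.

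**Figure D4:**
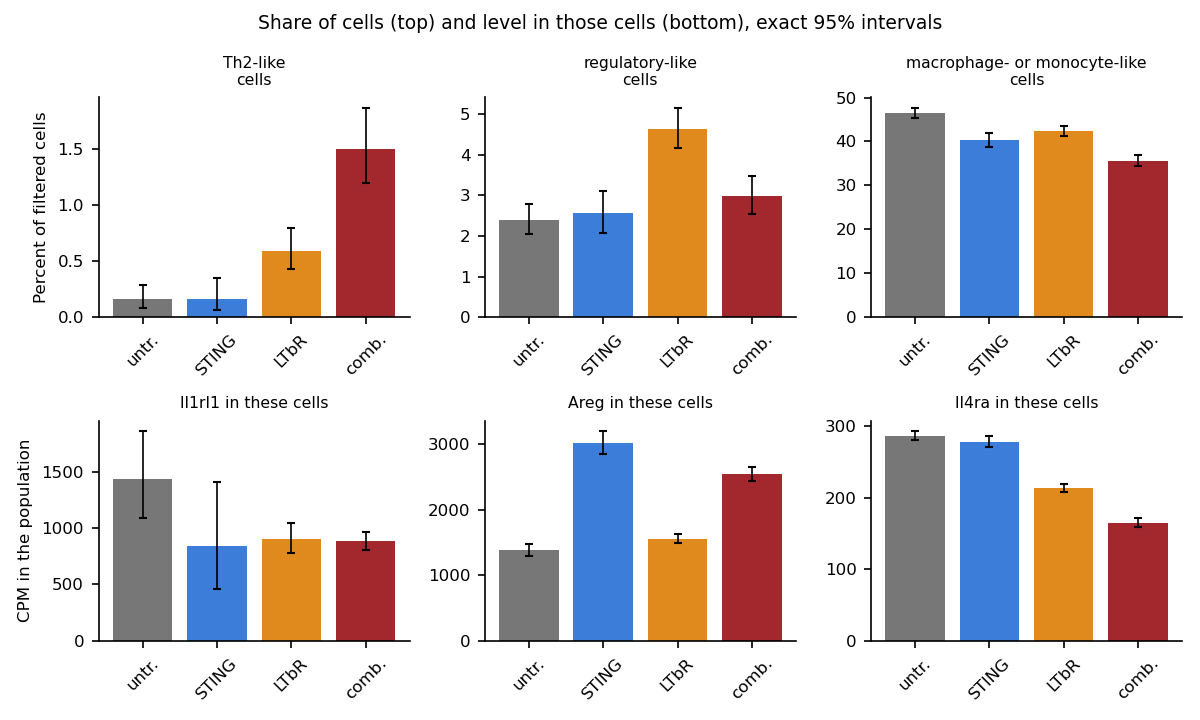
The upper row gives the percent of filtered cells that were Th2-like, regulatory-like or macrophage- or monocyte-like in each library, and the lower row gives the CPM of Il1rl1, Areg and Il4ra within those cells, all with exact 95% intervals as error bars. Th2-like cells go from 0.162% to 1.5% while Il1rl1 in them is not higher, whereas Areg in regulatory-like cells and Il4ra in macrophage- or monocyte-like cells differ in level.

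Regulatory-like cells with an Il1rl1 UMI carried more Areg than those without. The level was 2654 against 859 CPM in the untreated library, 4679 against 2470 with the STING agonist, 2129 against 1314.5 with the LTbR agonist and 3026 against 2233 with the combination, so that the order was the same in 4 of 4 libraries. Cells with an Il1rl1 UMI were also deeper, with a median of 4316 UMIs against 3410.5, and the part of depth in this difference was not tested. Th2-like cells had Areg levels of 1110, 420, 806 and 1189 CPM, which puts them near regulatory-like cells in the untreated library and below them in the other 3.

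Other cells added to Areg in smaller amounts. Macrophage- or monocyte-like cells, which are numerous, held 11.7% of the UMIs at a low level of 12.2, 21.9, 31.1 and 20.5 CPM. CD8-like cells held 8.62%, with 74.2, 37.8, 53.0 and 113 CPM. Dendritic-like cells held 6.19%, and there Areg was 0.563, 0.826 and 0.506 times untreated with the STING agonist, LTbR agonist and combination. In gamma-delta-like cells (4.11%) these ratios were 2.25, 0.777 and 1.64. In other T-like cells (3.01%) they were 15.0 (7.85 to 32.0), 4.97 (2.54 to 10.8) and 19.2 (10.3 to 40.4). These ratios rest on a low untreated level, since other T-like cells gave 0.185 CPM of the Areg of the untreated library. The 10 top cells held 66.2% of the Areg UMIs of other T-like cells. The unnamed or mixed cells held 10.3% of Areg and 8.73% of Il1rl1. They include a cluster of 479 cells led by Car4, Areg, Itgb8 and Foxp3 in which T and macrophage markers were raised together, with a median of 13149 UMIs per cell against 3599 in regulatory-like cells.

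Il4ra was carried mainly by macrophage-, monocyte- and dendritic-like cells, and in these cells its level was lower in both libraries with the LTbR agonist. Macrophage- or monocyte-like cells held 65.7% of its UMIs and dendritic-like cells 12.2%. In macrophage- or monocyte-like cells the level was 287 CPM in the untreated library (280 to 293) and 279 after the STING agonist (271 to 287). It was 213 CPM after the LTbR agonist (208 to 219) and 165 after both (159 to 172). Divided by the untreated level these were 0.973 (0.937 to 1.01), 0.744 (0.719 to 0.770) and 0.576 (0.551 to 0.603). All 8 macrophage- or monocyte-like clusters had a lower level in the combination than in the untreated library, with values such as 276 against 166 CPM in the cluster with most cells. In dendritic-like cells the level went from 206 to 148 CPM under the combination (ratio 0.721, 0.650 to 0.799) and was 0.840 times untreated with the LTbR agonist (0.775 to 0.909). Neutrophil-like cells, with 1.83% of the UMIs, went the other way with the single agonists, at 1.30 times untreated with the STING agonist (1.02 to 1.67) and 1.28 times with the LTbR agonist (1.01 to 1.61), and the combination gave 0.859 (0.537 to 1.33). Th2-like cells had few Il4ra UMIs, 68 in 139 cells, and CD8-like cells stood at 53.8 CPM.

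Genes known to answer IL-4 or IL-13 in macrophages and dendritic cells were in part higher with the LTbR agonist. Of 10 listed genes, all measured, 4 were at least 2-fold above untreated with the LTbR agonist (1.94% of all genes) and none below (0.861%). Under the combination 5 were above (3.24%) and 1 below (2.7%), with median ratios of 1.71 and 1.78 against 1.01 and 1.04 over all genes tested. With the STING agonist none was above (1.01%) and 1 below (1.4%), with a median of 0.782 (all genes 1.02). Retnla, a secreted protein of alternatively activated macrophages, was 10.1 CPM in the untreated library, 13.4 with the STING agonist, 194 with the LTbR agonist and 181 with the combination, which was 19.2 times untreated in the third (17.6 to 21.0) and nearly as much in the last (16.5 to 19.7 times). Of its UMIs 96.5% were in macrophage- or monocyte-like cells, where the level went from 18.1 to 372 CPM with the LTbR agonist and 431 CPM with the combination. The macrophage- or monocyte-like cells were spread over their 8 clusters in different shares: the cluster led by Retnla had 74, 37, 230 and 311 cells in the 4 libraries, while the one with most cells (led by C1qb) had 1402, 656, 776 and 397. Ccl17, a chemokine that attracts Ccr4-bearing T cells, was 8.48, 8.30, 38.1 and 48.4 CPM in the same order, mostly in dendritic-like cells (73.7% of UMIs).

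Not every gene of that list was higher. Arg1 was 0.591 times untreated under the combination (0.582 to 0.600) and Ccl22 0.438 times (0.400 to 0.479), while Ccl24 was 2.44 times untreated with the LTbR agonist but 1.08 times with the combination. Fcer2a, the low-affinity IgE receptor, was 17.7 times untreated under the combination (12.8 to 25.1). However, 97.6% of its UMIs lay in B- or plasma-like cells, which numbered 58, 15, 175 and 537 in the 4 libraries, and within those cells it was 97.1, 177, 49.5 and 136 CPM. The part of these genes that depends on IL-4 or IL-13 was not tested.

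Other lists of related genes were examined in the same way. A listed gene counted as measured with at least 50 UMIs in 1 library, so some entered only through a treated library. Examples are Il5ra, Bhlhe41 and Fcer2a, with 35, 43 and 40 untreated UMIs. Of the 7 measured genes of IL-4 and IL-13 receptor signalling none was 2-fold above or below untreated in any treated library. Their medians were 1.08, 0.942 and 0.999, in the order STING agonist, LTbR agonist, combination. In that order 1.01%, 1.94% and 3.24% of all genes were above and 1.4%, 0.861% and 2.7% below. A count of none in so short a list is therefore near the share of all genes. Stat6, the transcription factor of the pathway, was 0.935 times untreated under the combination. Il13ra1, the second chain of the IL-13 receptor, was 0.599 times untreated, and 81.6% of its UMIs were in macrophage- or monocyte-like cells. Of 7 alarmin genes and receptors only Il1rap, Crlf2 and Il7r were measured, none past 2-fold (medians 1.31, 0.937 and 0.936), and Il1rap, the partner chain of ST2, was 0.649 times untreated under the combination. Il33, Tslp and Il25 themselves did not reach 50 UMIs in any library of these sorted leukocytes.

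Among 14 other effectors and receptors of type 2 lymphocytes, 9 were measured. With the STING agonist 2 were 2-fold above untreated (1.01% of all genes) and 1 below (1.4%). With the LTbR agonist 2 were above (1.94%), and under the combination 3 were above (3.24%; medians 0.990, 1.03 and 0.847). Csf2 was 2.62 times untreated, with 54.5% of its UMIs in the Penk-led sub-cluster, and Ccr4 2.14 times. Il5ra, the IL-5 receptor chain, was 10.4 times untreated, but 96.4% of its UMIs were in B- or plasma-like cells. No cell had 3 or more of 6 eosinophil markers, so that the usual target cell of IL-5 was not found here. Of 14 transcription factors none was past 2-fold with the STING agonist (1.01% of all genes above, 1.4% below) and 1 was above with the LTbR agonist (1.94%). Under the combination 3 were above (medians 1.02, 1.06 and 1.21), namely Irf4 (2.11 times), Pparg (3.30 times) and Bhlhe41 (5.62 times), against 3.24% of all genes. Macrophage- or monocyte-like cells held 55.1% of the Pparg UMIs and 47.3% of those of Bhlhe41, which had a further 33.4% in B- or plasma-like cells. In the family of epidermal growth factors and receptors 5 of 10 were measured (medians 0.888, 0.800 and 0.873). Hbegf, another ligand of that family, was 2.05 times untreated with the LTbR agonist, and Egfr, the receptor of amphiregulin, was 0.291 times untreated under the combination, from 58 to 12 UMIs. Of the 58 untreated Egfr UMIs, 27 lay in the cluster with the basophil- or mast-like cells, which also held cells with tumour epithelium markers.

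Over the 27 clusters of all cells, the genes with the most similar levels were described by Pearson's r of log2(CPM + 10), with no test. For Il5 the nearest were Il21 (r = 0.966), Lgals7 (0.915), Il13 (0.868), Cd40lg (0.861) and Trav14-2 (0.836). For Il13 they were Il5 (0.868), Il21 (0.833), Lgals7 (0.793), Igfbp7 (0.787) and Il4 (0.741). The Th2-like sub-cluster held 80.3% of the Il5 and 32.5% of the Il13 UMIs, and the Penk-led one 14.7% and 58.1%. Few clusters can thus set r for both genes. Il4 was nearest to Dclk1 (0.947), Igfbp7 (0.927), Cyp11a1 (0.926), Slc18a2 (0.922) and Lama5 (0.912), and at this coarser level its pattern was set by the basophil- or mast-like cluster. Il1rl1 was nearest to Ccn4 (0.951), Map6 (0.883), Tshz2 (0.880), Adarb1 (0.828) and Lrig1 (0.828). Areg was nearest to Rapsn (0.861), Il1rl1 (0.814), Apbb1 (0.799), Itgb8 (0.795) and Paqr8 (0.794). Gata3 followed the T- and NK-like clusters, with Xlr4a (0.953), Zap70 (0.946), Faah (0.942), Ccdc92 (0.942) and Il27ra (0.941), and Il4ra was nearest to Nfkbie (0.874), Tdrd7 (0.837), Vps26a (0.815), Oasl2 (0.810) and Nampt (0.806). These clusters share libraries and depth, so the values describe a pattern only.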

How the data were processed

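Sorted leukocytes were captured by the authors with a 10x Genomics 5-prime kit, and reads were counted with Cell Ranger 7.1.0 on the mouse build mm10. The deposited table holds raw counts of UMIs, none normalized, for 24839 barcodes of 4 libraries, told apart by the barcode suffix that the labels assign. The study's limits (300 to 5000 genes, at most 6% mitochondrial UMIs) kept 23011 cells. Members and lists were chosen with earlier results of these data known. Counts scaled to 10000 and logged, 2000 variable genes without members and V(D)J genes, 30 components and 20 neighbours were clustered by Leiden (leidenalg 0.10.2, resolution 1, and 2 for T- and NK-like cells). Names needed 3 raised markers and rest on thresholds set after clusters were seen. They are rebuilt and are not the study's. Doublets were kept. Ratios of summed counts have exact conditional intervals, checked on simulated independent Poisson counts, the model that the intervals assume. That check does not cover genes whose UMIs lie in a few cells, such as Il13. Cell groups by marker counts (basophil, ILC2, tumour epithelium) and leaving out top cells singly were chosen after values were seen. Named genes are the members, the 3 measured genes of each list (at least 50 UMIs in 1 library) with the largest change under the combination, and the 5 nearest genes (at least 200 UMIs) per member. Others named from a list (Arg1, Ccl22, Ccl24, Stat6) were chosen after their values were seen.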

Additional observations from a re-analysis of the deposited data

How the results depend on the processing

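Each group had 1 library, so no spread between samples was known, and "moved" here means past the counting interval. No paired analysis was possible because each group has 1 library. Of 143 recomputed log2 ratios to untreated, 142 kept their sign. The exception was Il5 with the STING agonist when the top cell was left out, where counts were 8 and 3 UMIs. In the lists that follow, values are log2 ratios in the order STING agonist, LTbR agonist and combination, of those that moved. With 10 CPM added, which draws low genes towards 0, Il4 was -0.056, 0.22 and 0.29, Il5 0.14 and 0.61 (LTbR agonist, combination), Il13 1.27 and 1.01, Il1rl1 0.58 and 1.08, Gata3 0.56 (combination) and Areg 0.54, 0.59 and 1.06. With cells thinned to 1000 UMIs, Il4 was 1.16 (combination), Il5 1.32 and 3.28, Il13 1.49, 3.18 and 3.07, Il1rl1 0.79 and 1.30, Areg 0.49 and 0.93 (STING agonist, combination) and Il4ra -0.21 and -0.48 (single agonists). With the mean over single cells, Il4 was 1.40, Il13 3.07 and 2.99, Il1rl1 1.30, Gata3 0.60, Areg 1.04, and Il4ra -0.12, -0.33 and -0.68. Without the 10 top cells of each library, Il4 was 4.85 and 4.78, Il13 3.23 and 4.66, Il1rl1 1.53 and 2.21, and Areg 0.46, 0.93 and 1.37, while Il5 had no value. Without the top cell, an alternative chosen after seeing the data, Il4 was 2.41 and Il13 2.99 with the LTbR agonist. With all deposited barcodes Areg was 0.11, 0.46 and 0.76, and without cells of a doublet score above 0.2 it was 0.50 and 0.56 with the single agonists. The cause of these shifts was not tested beyond the construction of each alternative. Clustering at another resolution gave 147 Th2-like cells, 134 of them shared with the 139 described.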

Other observations

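Areg had a further source among barcodes with tumour epithelium markers (Krt8, Krt18, Krt19, Epcam). Within the quality limits 7 such cells, 3 untreated and 4 from the LTbR agonist library, held 173 Areg UMIs. Beyond the limits, above the maximum of 5000 genes, 8 untreated, 2 STING agonist, 11 LTbR agonist and 2 combination barcodes with these markers held 1502, 108, 912 and 292 Areg UMIs, at 3517, 1466, 2285 and 3274 CPM. For the untreated library this was 30.9% of all its Areg UMIs, and for the combination 5.04%. The libraries had been sorted for Cd45.

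The 12 cells with at least 3 basophil or mast cell markers but no Mcpt8 held 11 Il4 and 14 Il13 UMIs, whereas the 14 with Mcpt8 held 46 Il4 and 1 Il13 UMIs. Neither set had a Gata3 or Il5 UMI, and 13 of the 26 cells had an Il1rl1 UMI.

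In conventional CD4 helper-like cells outside the Th2-like, regulatory-like and Penk-led sub-clusters Areg was 6.55 times untreated with the combination (3.62 to 12.6), from 126 UMIs in all 4 libraries.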
